A study of Drosophila melanogaster with 2 samples.

Results

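The peaks described here are binding sites of a CG11085-eGFP fusion protein that lay inside a gene, in an intron or a non-coding exon, more than 500 bp and up to 2000 bp from the nearest annotated transcription start site (TSS) of any gene. They were chosen by membership of the authors' conservative list and by position, with no cutoff on signal. Membership still goes with signal. The median pooled signal was 121 at these sites and 23.3 at ranked regions of the same position that did not pass the authors' threshold. Comparisons with such regions below therefore also compare strong regions with weak ones. From that list, each peak on a chromosome arm was kept when its summit lay within a gene, outside every untranslated and coding exon of protein-coding genes, and at that distance from a TSS. The rule kept 377 peaks, which is 14.4% of the 2610 conservative peaks on the arms and part of 2649 conservative peaks in all. The material was whole Drosophila melanogaster embryos, 0 to 24 hours old, of a transgenic strain labelled CG11085-GFP, and the fusion was pulled down with an antibody against GFP. The labels do not say which promoter drives the fusion. The series holds 1 group of 2 biological replicates. Both carry the fusion, neither received a labelled treatment, and no control library was analysed here, so what the same antibody recovers from flies that lack the fusion is unknown here. Because whole embryos mix all cell types, a site bound in more cells and a site bound more strongly in each cell cannot be told apart.

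CG11085 encodes a homeodomain protein, a class of DNA-binding proteins that act as regulators of development and often contact short AT-rich words. Introns close to a start site, the first intron above all, are known in flies to hold enhancers and the alternative start sites from which 1 gene makes several transcripts. Chromatin immunoprecipitation recovers DNA near the protein, and a peak summit is the position of highest enrichment in such a region. The signal given below is the authors' value for each peak, on a scale the sources do not state. The irreproducible discovery rate (IDR), which the authors used as their threshold, measures how alike both replicates rank the regions. The pooled signal comes from the reads of both replicates together, and each replicate also has its own.

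The sites with the highest signal had short AT-rich stretches at their summits, and these are shown because the comparisons of sequence below turn on such words. The words are the 2 listed words called more frequent at the summits than in the lower-coordinate flanks, TAATTA, which homeodomain proteins such as Antennapedia contact, and the TATA box word TATAAA, with the 6-base word with the smallest p-value at the summits, TTAAAA. The call of TAATTA was lost in most other settings and was not made against regions that did not pass. Of the 20 strongest sites, 3 are not shown, those in Adf1, HmgZ and KCNQ, and of the other 17, 12 (70.6%) carried at least 1 of these words or its reverse complement within 50 bp of the summit. The same held for 52.3% of all 377 summits. It held for 25.2% and 29.97% of the windows centred 250 bp to their lower and higher side. Among the summits of intronic regions at the same distance that did not pass, the share was 26.6%. Intronic peaks over 2000 bp from a TSS came closer, with at least 1 of these words at 44.3% of 404 summits. The words were chosen on the 377 summits, so the shares are a description. Each line gives 30 bases around the occurrence nearest the summit, 5' to 3' on the strand of the host gene, from the NCBI RefSeq copy of the dm6 assembly, with occurrences of these words in capitals.
CG11050 (chr2L:6612682-6612711, plus strand): atgcatatttgcTTAAAAttaatacaagat
CG32772 (chrX:4910356-4910385, plus strand): aagttaagcggtTATAAAactaacaaaaca
Trl (chr3L:14759511-14759540, minus strand): aaacgcacTATAAAaactagccaatggaaa
lncRNA:CR44619 (chrX:12752326-12752355, plus strand): ctaacagttacaTTTTAAacatgattatcg
norpA (chrX:4324967-4324996, plus strand): agtttcatagcaTTTATAgagcagtttagt
CG9837 (chr3R:8811679-8811708, minus strand): ttgTTTATAaccTATAAAtttctgaatgta
CHES-1-like (chrX:7706956-7706985, minus strand): ggttagtttttctcagTTTATAtatgttat
NFAT (chrX:13640527-13640556, plus strand): taacttagtgctTAATTAtaccactaacag
chif (chr2L:16351183-16351212, minus strand): tcattacactcaTTAAAAtgtctatttcgg
LPCAT (chrX:9579295-9579324, minus strand): agctcttccttcTTAAAAtacatacatttg
MYPT-75D (chr3L:18640702-18640731, plus strand): tagctagattatTTAAAAtaatatcaaggc
for (chr2L:3655798-3655827, minus strand): gttgatcaaaagTTTTAAAAttatttaatc

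The highest signal lay in the second intron of CG11050, an intron of only 140 bp, 1026 bp downstream of that gene's TSS. This peak, chr2L:6612549-6612901, had a signal of 1948 in the pooled reads, with 1319 in replicate 1 and 618 in replicate 2, and ranked 3 among all 2610 conservative peaks on the arms. Trl, which encodes the GAGA factor, had its strongest peak at chr3L:14759351-14759684, 1528 bp upstream of its nearest TSS but inside the gene, with 898 in the pooled reads, 534 in replicate 1 and 351 in replicate 2. The intron of osa, a subunit of the SWI/SNF-type Brahma complex, held a peak of 512 in the pooled reads, 285 in replicate 1 and 226 in replicate 2. That summit also fell in an exon of a non-coding transcript, and the nearest TSS, 717 bp away, was that of lncRNA:CR46035. NFAT, a transcription factor with a Rel-type DNA-binding domain, had 541 in the pooled reads, 323 in replicate 1 and 232 in replicate 2. In CHES-1-like, a forkhead transcription factor gene, the strongest peak reached 560 in the pooled reads, 368 in replicate 1 and 208 in replicate 2. All 3 values of each of these peaks were far above the medians of the 377 sites, which are given below. The peaks were picked by pooled signal, so this is a description.

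Adf1, whose product is a Myb-type activator first described at the Adh gene, held the second strongest site, at chr2R:6662881-6663214, in an intron that is the first of some of its transcripts, 781 bp downstream of its TSS. It had a pooled signal of 1246, with 717 in replicate 1 and 567 in replicate 2. HmgZ, which encodes an HMG-box chromosomal protein, followed at chr2R:21703192-21703605 with 1179 in the pooled reads, 634 in replicate 1 and 539 in replicate 2. The summit also lay within the overlapping gene HmgD, of the same protein type. The peak in norpA, the phospholipase C of fly phototransduction, had 748 in the pooled reads, 486 in replicate 1 and 278 in replicate 2. The first intron of chif, the fly counterpart of the replication kinase regulator Dbf4, had 525 in the pooled reads, 338 in replicate 1 and 189 in replicate 2. In for, which encodes a cGMP-dependent protein kinase, the values were 449, 252 and 191 in the same order. Others of the 20 strongest were in CG32772, CG3726, CG9663, lncRNA:CR44619, CG9837, the phospholipid acyltransferase gene LPCAT, the myosin phosphatase subunit gene MYPT-75D, the potassium channel gene KCNQ and mub, which encodes a KH-domain RNA-binding protein. Their pooled signals ran from 457 in mub to 1126 in CG32772. All 20 were present in the thresholded lists of both single replicates, and 19 had less than 40% GC at the summit, mub being the exception at 48.5%. Since the 20 were picked by pooled signal, which comes from the reads of both replicates, their presence in both lists is a description.

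**Figure D1:**
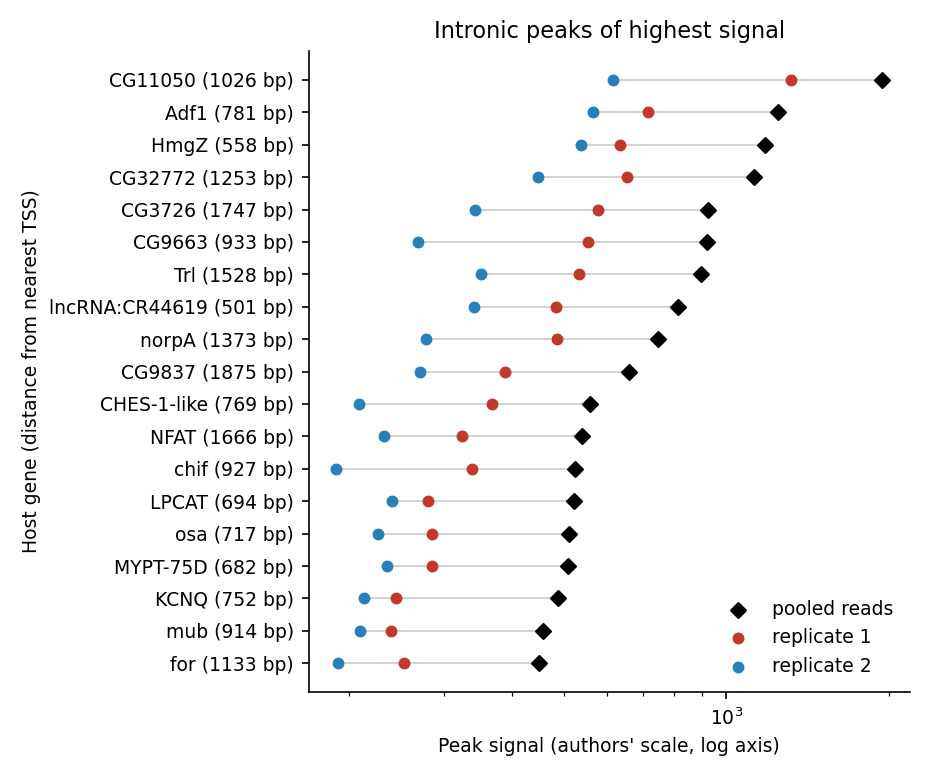
Pooled signal (black diamonds), replicate 1 signal (red) and replicate 2 signal (blue) of 19 of the 20 strongest intronic peaks near a TSS, on a log axis of the authors' signal scale, named by host gene with the distance from the nearest TSS. Replicate 1 lies above replicate 2 in all 19, and CG11050 stands at the top with 1948 in the pooled reads.

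Across all 377 sites the pooled signal had a median of 121 and a range of 2.40 to 1948, with quartiles of 90.8 and 177. At a global IDR of 0.001 the median was 190, and in the list of replicate 2 alone, which has that replicate's own signal, it was 64.2. The median signal was 73.1 in replicate 1 and 50.03 in replicate 2. Values from each replicate's own file were found for both replicates at 371 sites, and at 328 of them (88.4%) replicate 1 was higher, with a median ratio of replicate 1 to replicate 2 of 1.5. The whole list was alike, with replicate 1 higher at 91.3% of 2566 conservative peaks on the arms and a median ratio of 1.51. The replicates ranked the sites with a Spearman correlation of 0.672, and the logarithms of their signals had a Pearson correlation of 0.838, over 371 sites that share the same pair of libraries. Over the 2566 peaks of the whole list the same correlations were 0.718 and 0.837. These correlations are descriptions. Each single-replicate list held 239 of the 377 sites. Both lists held 178, neither held 77, and 61 were found only in replicate 1 and as many only in replicate 2.

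At the extremes, 59 sites had a replicate 1 signal over 2 times that of replicate 2. The highest ratio was at SCaMC, a mitochondrial carrier gene, with 253 in replicate 1 and 44.4 in replicate 2, a ratio of 5.69. It was followed by lncRNA:CR44320 at a ratio of 5.43 and larp, which encodes a La-related RNA-binding protein, at 4.86. The lowest ratio was at the second peak of CG9663, with 58.6 in replicate 1 and 113 in replicate 2, a ratio of 0.521. Next came the kinase gene fray at 0.620 and sima, the fly HIF-alpha gene, at 0.654. The replicate 2 value at this fray site, 85.7, was also that of a stronger peak in the same gene. In 29 sites the region of a replicate was also assigned to another conservative peak, so the same replicate value stands for both. Of the 14 sites with a pooled signal under 40, 13 were of that kind, for example the second peak in fra, with a pooled signal of 3.40.

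**Figure D2:**
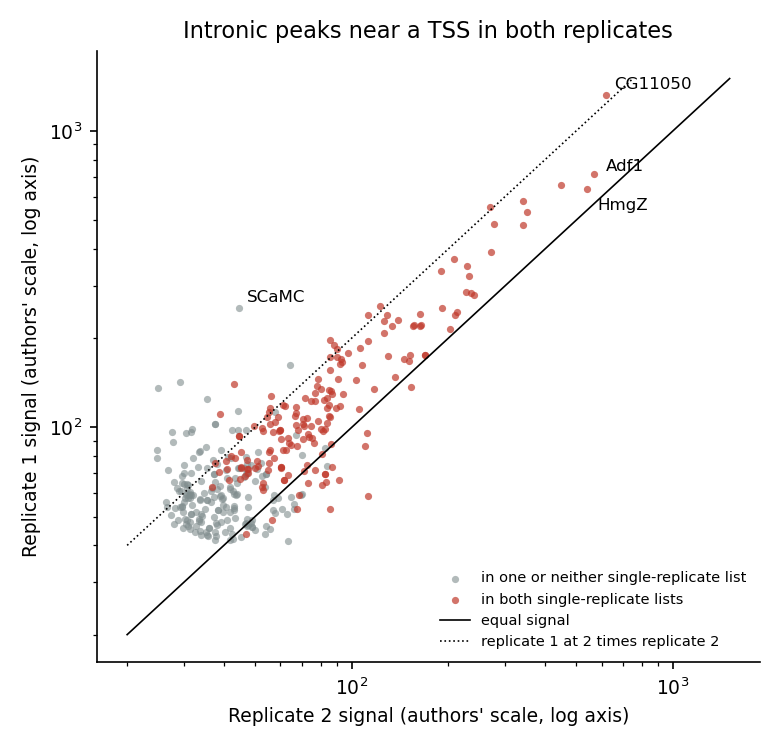
Replicate 1 signal against replicate 2 signal at the 371 sites with a value in both, on log axes of the authors' scale; red points were in both single-replicate lists and grey points in one or neither. Most points lie above the line of equal signal, and SCaMC is far from the rest with 253 in replicate 1 and 44.4 in replicate 2.

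The share of candidate regions that passed the authors' reproducibility threshold was higher near start sites than deeper in introns. Among all ranked regions on the arms, 1.83% were on the conservative list. Of the ranked intronic regions more than 500 and up to 2000 bp from a TSS, 377 of 12745 passed (2.96%), against 404 of 44472 (0.908%) of those over 2000 bp away. This is an odds ratio of 3.32, with a 95% interval of 2.88 to 3.84 (two-sided Fisher's exact test, adjusted p = 3.56e-57 over 10 comparisons). Within the distance range, 3.83% passed at up to 1000 bp and 2.40% beyond 1000 bp, an odds ratio of 1.62 (1.31 to 1.99; exact test, adjusted p = 9.75e-06), in a comparison added after the data had been seen. By steps of distance the share was 4.24% in the 250 bp nearest the lower limit and 2.08% from 1751 to 2000 bp. For reference, 7.24% of ranked regions within 500 bp of a TSS passed. Regions of 1 genome are not replicates of an experiment, so these p-values measure counting error over regions only.

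**Figure D3:**
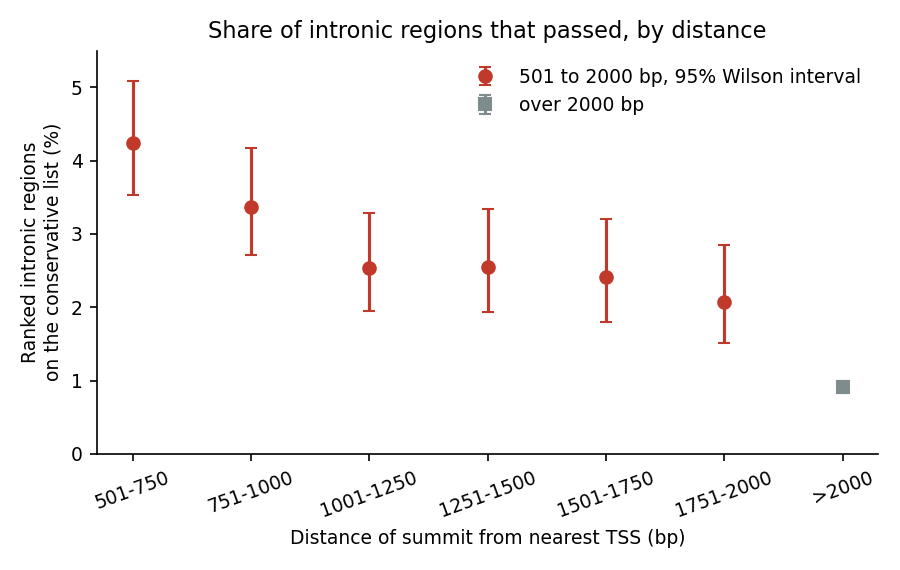
Share of ranked intronic regions on the conservative list (percent, with 95% Wilson intervals) by distance of the summit from the nearest TSS; red points cover the distances up to 2000 bp and the grey square the regions beyond. The share is 4.24% in the nearest step, 2.08% in the step from 1751 to 2000 bp and 0.908% beyond 2000 bp.

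The median pooled signal of the sites, 121, stood beside 113 in deeper intronic peaks and 138 in promoter peaks. The pooled signal was above the median of the whole list, 124, in 181 of 377 sites (48.0%), against 38.9% of 404 intronic peaks farther from a TSS (odds ratio 1.45, 1.08 to 1.95; exact test, adjusted p = 0.0143). That call was lost beyond 1000 bp, with an odds ratio of 1.31, and at a global IDR of 0.001, with 1.36. The same share was 57.2% of 1444 promoter peaks (odds ratio 0.691, 0.547 to 0.873; exact test, adjusted p = 0.00277). The comparison with promoter peaks lost its call in 6 of 10 other settings, with an odds ratio of 0.808 without replicate 1 and 0.979 without replicate 2. Presence in both single-replicate lists was 47.2% here and 40.3% in the deeper intronic peaks (odds ratio 1.32, 0.986 to 1.77; exact test, adjusted p = 0.0672), which did not pass. It passed in 4 of 8 other settings. At a global IDR of 0.001 nearly all peaks were in both lists, 92.9% against 93.8%, and the odds ratio of 0.859 was not called. Against promoter peaks, 57.8% of which were in both lists, the odds ratio was 0.654 (0.518 to 0.827; exact test, adjusted p = 6.02e-04), and 2 of 8 other settings lost this call.

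The sites lay mostly in first introns. Of the 358 summits in an intron of a protein-coding transcript, 303 (84.6%) were in the first intron of at least 1 transcript, against 64.7% of 11485 ranked regions of the same position class that did not pass (odds ratio 3.0, 2.24 to 4.09; exact test, adjusted p = 7.68e-16). Set against the 377 strongest of the regions that did not pass, where the same share was 73.8%, the odds ratio was 1.95. The introns that held them had a median length of 4960 bp. Counted across all sites, 18 summits overlapped an exon of a non-coding transcript, and 19 sites had only a non-coding host gene. With respect to direction, 231 sites (61.3%) lay downstream of the nearest TSS and 146 upstream of it, against 64.2% downstream among regions that did not pass. An odds ratio of 0.882 (0.711 to 1.10; exact test, adjusted p = 0.252) lay on the other side of the threshold, so no difference in direction was detected. Of the 146 upstream sites, 45 had a TSS of another gene as the nearest, and the rest lay upstream of an internal start site of their own host gene, as in Trl, NFAT and HmgZ. In all, 213 sites (56.5%) stood between the first and last start site of their host, compared with 40.8% of the regions that did not pass. This position needs a host with more than 1 TSS, which held for 74.0% of the sites and 61.9% of those regions. These differences were not tested.

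A second peak at the nearest start site was more frequent than in regions that did not pass. The nearest TSS also had a conservative summit within 500 bp for 64 sites (17%), against 6.64% of 12368 regions that did not pass (odds ratio 2.88, 2.14 to 3.81; exact test, adjusted p = 5.62e-11). The odds ratio was 1.82 against the 377 strongest of the regions that did not pass and 4.55 at a global IDR of 0.001. In these 64 pairs the promoter peak was the stronger in 38 and the intronic peak in 26. MYPT-75D had an intronic pooled signal of 509 and a promoter signal of 94.5. By contrast elav, which encodes a neuronal RNA-binding protein, had 233 in the intron and 487 at the promoter. The median ratio of promoter to intronic signal was 1.12. The other 313 sites had no conservative peak at the nearest TSS.

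The X held 94 of the 377 sites (24.9%), against 18.4% of the 2233 other conservative peaks (odds ratio 1.48, 1.13 to 1.92; exact test, adjusted p = 0.00536), and 19.1% of the regions of the class that did not pass were on the X. The call was lost at up to 1000 bp, with an odds ratio of 1.37. The other arms held 90 on 3R, 68 on 2R, 67 on 3L and 58 on 2L, and the arm 4 held none. Repeat-masked sequence covered the summit in 99 sites (26.3%), against 15.6% of regions that did not pass (odds ratio 1.93, 1.51 to 2.45; exact test, adjusted p = 4.88e-07). How this sequence affects read mapping at the sites was not tested.

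**Figure D4:**
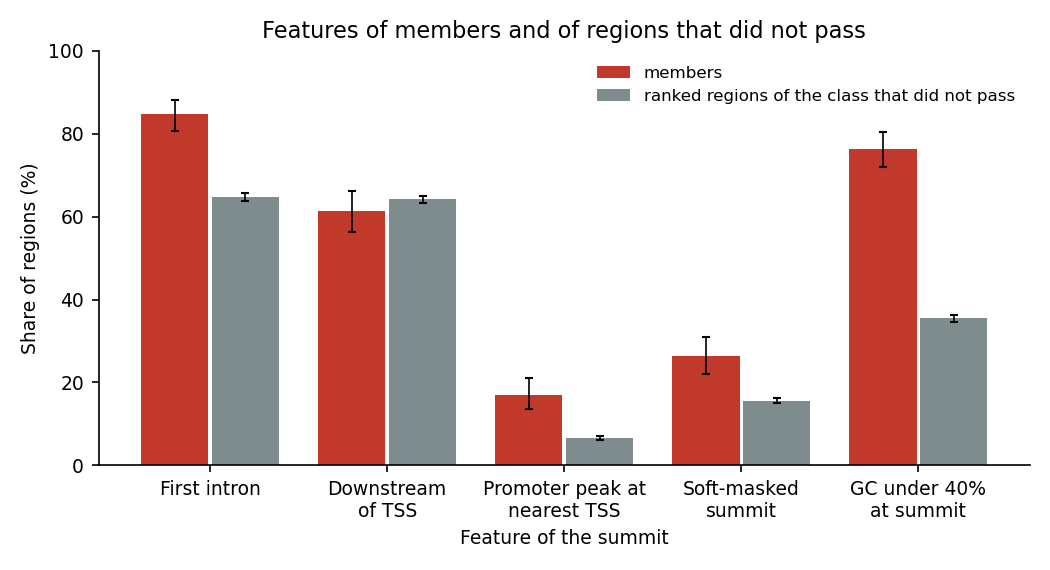
Share (percent, with 95% Wilson intervals) of the intronic peaks (red) and of ranked regions of the same position class that did not pass (grey) with each feature. First-intron summits (84.6% against 64.7%) and low-GC summits (76.4% against 35.4%) are more frequent among the peaks, while the share downstream of the TSS (61.3% against 64.2%) is not distinguishable.

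The summits were AT-rich relative to their surroundings. Median GC content within 50 bp of the summit was 32.7%, against 42.6% in the windows centred 250 bp to either side and 43.6% at the summits of regions of the class that did not pass. GC was lower at the summit than in the lower-coordinate flank in 283 sites, higher in 81 and equal in 13. In comparisons added after the data had been seen, GC was under 40% in 288 sites (76.4%), against 35.4% of regions that did not pass (odds ratio 5.89, 4.62 to 7.58; exact test, adjusted p = 1.01e-56 over 4 comparisons). This odds ratio was 10.1 without replicate 1, 9.03 at a global IDR of 0.001 and 4.94 against the strongest of the regions that did not pass. The share in deeper intronic peaks was 72.8% (odds ratio 1.21, 0.865 to 1.70; exact test, adjusted p = 0.251), so the difference did not pass. Promoter peaks had 68.1% (odds ratio 1.52, 1.16 to 2.00; exact test, adjusted p = 0.00217), a call lost at up to 1000 bp with an odds ratio of 1.43. In 25-base steps the mean fell to 32.2% at the summit and was back at 41.2% within 100 bp on the higher-coordinate side.

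**Figure D5:**
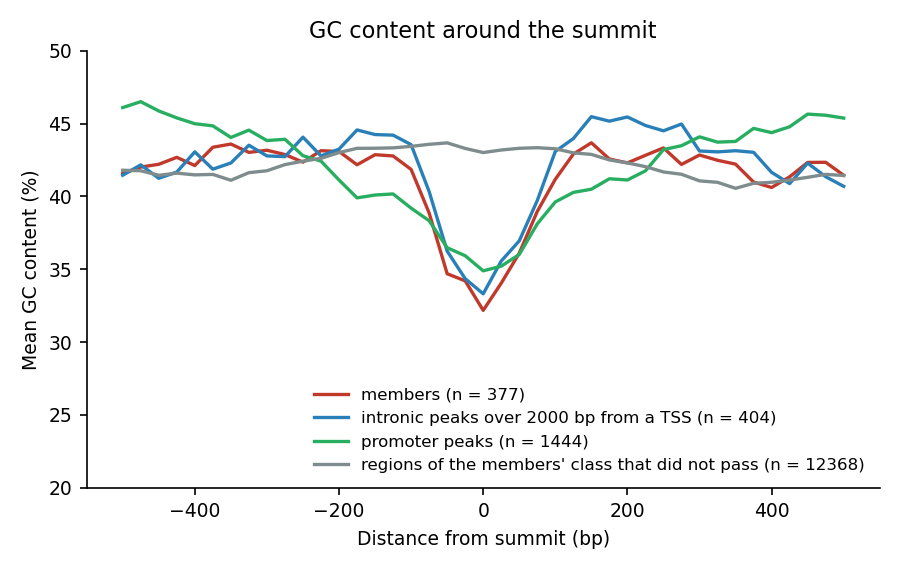
Mean GC content (percent, 25-base windows) by distance from the summit in bp, for the 377 intronic peaks (red), 404 intronic peaks over 2000 bp from a TSS (blue), 1444 promoter peaks (green) and 12368 regions of the class that did not pass (grey). The vertical axis does not start at 0. The 3 peak classes dip at the summit, to 32.2%, 33.3% and 34.9%, while the regions that did not pass stay at 43.0%.

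Most short words called more frequent at the summits had at most 1 G or C. Whether words differed beyond the base composition was not tested. Words were sought on both strands, and a word and its reverse complement were counted as 1. Of the 2080 words of 6 bases, 98 (4.71%) differed in frequency between the summit and the lower-coordinate flank (exact McNemar test, two-sided, Benjamini-Hochberg adjusted), 63 of them more frequent at the summit and 35 less. This count depended on the setting and ran between 14 and 203 over the alternatives. Of the 36 words made of A and T alone, 32 were called more frequent at the summit. TTAAAA was present at 34.2% of summits and in 13.8% of flanks (exact test, adjusted p = 2.06e-07). GGTTTA, one of the called words that contain G, was at 8.22% of summits and in 1.86% of flanks (exact test, adjusted p = 0.00426).

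Among 29 listed words, which include the CA repeat and runs of A beside words of known factors, 3 (10.3%) were called against the flank. The TATA box word TATAAA was at 23.3% of summits, against 9.81% of flanks (exact McNemar test, adjusted p = 5.02e-05) and 9.94% of regions that did not pass, and its call against the flank was lost in 2 of 13 other settings, at up to 1000 bp and without replicate 2. The homeodomain word TAATTA was at 9.28% of summits and in 3.98% of flanks (exact test, adjusted p = 0.0438). TAATTA was in 6.10% of the flanks on the other side, and its call was lost in 8 of 13 other settings, over which the adjusted p ran between 0.0102 and 0.529. No other word listed for homeodomain proteins was called against the flank. TAATTG was at 13.8% of summits against 9.02% of flanks, TAATCC at 5.04% against 1.86% and TGATTT at 14.6% against 11.4%. TAATGG was at 6.90% against 6.10% and AAGTG at 24.9% of both. TAAACG (4.51% against 5.57%) and TGACAG (3.18% against 3.71%) were lower at the summit. CACACA repeats were less frequent, at 6.63% of summits and in 14.9% of flanks (exact test, adjusted p = 0.00781), a call lost in 3 of 13 other settings. Set against regions that did not pass, 5 of the 29 words (17.2%) were called by Fisher's exact test: the TATA box word and runs of A were more frequent, while the word of the Polycomb-group protein Pleiohomeotic, the CA repeat and the GC-triplet word of Adf1 were less so. TAATTA was not among them, at 9.28% of summits against 6.56% (exact test, adjusted p = 0.145). Set against the deeper intronic peaks, 0 of the 29 (0%) passed after adjustment, and 1 had an unadjusted p under 0.05, TAATCC, a word of Bicoid-type homeodomains, at 5.04% against 1.98% (exact test, p = 0.0293).

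The 377 sites lay in 320 host genes, 278 of which held 1 site and 42 held 2 or more. Of the protein-coding genes with any ranked region of the class, 303 of 3531 (8.58%) held a site. These hosts had a median length of 14627 bp, against 8470 bp for all 3531 genes, and whether length accounts for which genes hold a site was not tested. CHES-1-like held the most, 6 sites, with pooled signals of 560, 339, 148, 122, 97.5 and 85.8. All 6 lay in first introns of some transcript of the gene, between 544 and 1996 bp from a TSS. Trl held 3 sites, with 898, 144 and 84.3. In NFAT the 3 sites had 541, 265 and 84.4. Tlk, which encodes the chromatin-linked Tousled-like kinase, also held 3, with 307, 157 and 114. The strongest site of each of these genes, picked by pooled signal, was in both single-replicate lists, which is a description only.

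Genes were also grouped by function, and counts are given as shares of the genes of each group that had a ranked region of the class, to be read against the 8.58% above. In receptor tyrosine kinase signalling, 8 of 24 genes (33.3%) held 12 sites. The 8 genes included the FGF ligand gene ths with a strongest site of 160 and the insulin receptor gene InR with 184. Also among them were the adaptor drk with 272, the kinase Raf with 79.7 and the inhibitor Sprouty (sty) with 157. The rest were the Spitz-trafficking protein gene Star (S) with 150, the ETS activator pnt with 100.3 and its regulator edl with 279. At edl the signal was 147 in replicate 1 and 136 in replicate 2. At InR it was 140 in replicate 1 and 43.0 in replicate 2, so this site differed more between the replicates. All 32 genes of this list, with or without a ranked region, had a median length of 13674 bp. That of all protein-coding genes on the arms was 2166 bp.

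Chromatin regulators had 5 of 15 genes (33.3%) with a site. Beside Trl and osa these were ph-p, a Polycomb repressive complex subunit, with 156, the BET bromodomain gene fs(1)h with 109, and kis, a CHD-type remodeller, with 78.6. In the BMP pathway, 3 of 8 genes (37.5%) held sites. They were the receptor gene wit with 128, the Smad gene Mad with 130, and shn, which encodes a zinc-finger partner of Mad, with 3 sites of which the 2 strongest had 272 and 117. Cytoskeletal genes had 6 of 22 (27.3%), led by Moe, the fly ERM protein gene, with 343, and the nesprin gene Msp300 with 321. The cofilin gene tsr had 236 and the formin gene dia 131. RNA-binding regulators had 6 of 25 (24.0%), among them mub, brat with 325, elav with 233 and the translational repressor gene pum with 158.

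Other groups had lower shares, some of them above the 8.58% of all such genes. Of ecdysone and nuclear receptor genes 3 of 16 (18.8%) held a site, in EcR with 290, Hr4 with 180 and Eip75B with 85.3. Homeobox genes had 3 of 39 (7.69%), in zfh1 with 186, NK7.1 with 109 and the Hox gene Abd-B with 70.3. The Abd-B site was in neither single-replicate list. Axon guidance genes had 4 of 31 (12.9%), in the netrin gene NetB with 155, the phosphatase gene Ptp10D with 126, the netrin receptor gene fra with 95.9 and Sema2a with 81.1. Cell cycle and growth genes had 2 of 15 (13.3%), Diap1, an inhibitor of apoptosis, with 196 and Mnt with 114. Glial genes had 2 of 9 (22.2%), the glutamine synthetase gene Gs2 with 211 and pnt, which is also on the kinase list. Notch pathway genes had 1 of 11, neur with 166, muscle genes 1 of 22, zfh1 again, stress genes 1 of 6, Hsp83 with 194, and insulator genes 1 of 5, Adf1. No site was found in the 13 Wnt pathway genes, the 4 Hedgehog pathway genes and the 3 translation genes that had a ranked region of the class. These lists were not tested for enrichment, and their genes differ in length.

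CG11085 itself, on the X, held no conservative summit. Its 5 ranked regions included 1 of the present position class, with a score of 58, under the lowest score of the list, 830. At the edges of the distance rule, the sites nearest the lower limit were lncRNA:CR44619, exactly at that limit, with a pooled signal of 814 and lncRNA:CR44363 at 502 bp with 272. Just outside that limit stood ph-p at 497 bp with 1343 and mats at 494 bp with 150. At the upper limit were CHES-1-like at 1996 bp with 122 and hiw, a ubiquitin ligase gene of synapse growth, at 1997 bp with 78.5. Just beyond it stood CG32572 at 2008 bp with 89.1 and CG3764 at 2015 bp with 130.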

How the data were processed

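Chromatin immunoprecipitation libraries of 2 biological replicates, sonicated to a labelled 200 to 800 bp, were analysed from peak files in dm6 coordinates. Peaks were thresholded by the irreproducible discovery rate (IDR), within each replicate and over both, per the labels and file names. The aligner and the peak caller are not given in the sources used for this work. Peak signals are the authors' deposited values on an unstated scale. The score, a whole number up to 1000, and the −log10 of the global IDR are also as deposited by the authors. The lowest score on the lists is 830, a global IDR of 0.01. Read depth is unknown, so intervals cover counting error over regions only.

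Each replicate's signal was looked up in that replicate's own ranked file, and 6 sites lack one. Regions that did not pass are the 12368 ranked regions of the class that scored below 830; 85 on the arms that scored 830 or more but are not listed were left out. Genes came from Ensembl release 115, without transposable elements, and sequence and repeat masking from the NCBI RefSeq copy of the same assembly, in which 99.8% of annotated start codons read as such. A site was in a single-replicate list when it shared at least 1 bp with a peak of it. Tests were Fisher's exact test with conditional odds ratios and 95% intervals, adjusted over 10 planned comparisons and, separately, over 4 added after the data had been seen, and exact McNemar tests for words, adjusted over 29 listed words or 2080 words of 6 bases. The tests were checked on simulated data, in which summit and flank windows had the same GC content, unlike at the sites. Python 3.11.15, scipy 1.17.1 and pandas 2.3.3 were used. Of 486 listed symbols, 9 entries had no match and were left out.

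Genes named are the 20 hosts of highest signal, 1 of which is not reported here, hosts with several sites, up to 4 hosts of each of 17 lists by signal, the sites at the distance limits, the extremes of the replicate ratio and CG11085; S, pnt, sty, Raf and kis were named beyond the 4 to complete their lists, after their values were seen. The members, lists and words were chosen with earlier results of these data known. Alternatives covered 15 settings, of which 1, dropping the weaker peak where several drew on the same region of a replicate, was chosen after seeing the data.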

Additional observations from a re-analysis of the deposited data

How the results depend on the processing

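Over 15 settings, 266 alternative values were computed. The higher pass share near start sites (odds ratio 2.69 to 4.34), the first-intron, promoter-peak and repeat-masked shares and the low GC against regions that did not pass kept their direction and call in every setting run for them, though some sizes moved by over 1.5 times, as given with those results. The difference by distance (1.49 to 1.88) did so too.

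Sites above the median against promoter peaks lost the call with 1 site per host (0.848), at up to 1000 bp (0.764), at a global IDR of 0.001 (0.830), in the larger list (0.813) and in both single-replicate lists (0.808 to 0.979). Against deeper intronic peaks it was lost beyond 1000 bp (1.31) and IDR 0.001 (1.36). Presence in both lists against deeper intronic peaks passed with 1 site per host (1.44) and at up to 1000 bp (1.54). It also passed in the larger list (1.46) and with protein-coding TSSs (1.35). At IDR 0.001, where 92.9% and 93.8% of the peaks were in both lists, the odds ratio was 0.859 without a call. Against promoter peaks the call on presence in both lists was lost at up to 1000 bp (0.763) and IDR 0.001 (0.771). The downstream share, never called, reversed at IDR 0.001 (1.01) and ranged from 0.783 to 1.04 when a replicate was left out. The X share lost its call at up to 1000 bp (1.37). Low GC against deeper intronic peaks passed in the larger list (1.37), and against promoter peaks it was lost at up to 1000 bp (1.43). The causes were not tested.

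The number of sites was 190 at up to 1000 bp, 187 beyond 1000 bp and 155 at IDR 0.001. The called 6-base words numbered 23, 14 and 42 in these, 164 against the other flank, 203 within 100 bp of the summit and 24 within 25 bp, and 36 to 187 when a replicate was left out. Listed words called against the flank numbered 0 at up to 1000 bp, 1 beyond 1000 bp, 7 within 100 bp and 1 within 25 bp. Against regions that did not pass they numbered 2 beyond 1000 bp and 2 against the strongest such regions. No paired analysis was possible because the series has 1 group. Fewer sites are tested in the narrower ranges and at the stricter IDR. Read depth is unknown, and its effect on which weak sites were listed was not tested.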
